A study of Mus musculus with 6 samples.

Results

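Cytosolic chaperones and the heat-shock targets around them were followed in granulocyte-macrophage progenitors (GMPs), the bone marrow cells that give rise to granulocytes and monocytes. The 43 members were taken by name: HSP70 and HSP110 proteins, HSP90 with its co-chaperones, HSP40 (J) proteins, BAG proteins, the 8 subunits of the CCT ring, HSP60 and HSP10, a small heat-shock protein and 2 heat-shock factors. Of these, 42 had a row among the 37620 genes of the table, 40 passed the filter on low values (a mean normalised read count of at least 10) and were tested, and 2 lay below it (Hspa1b and Hspb1). Hspa14 could not be matched by its identifier and has no value here. The list includes Hspa9 and Hspd1 with Hspe1, whose proteins work in mitochondria.

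All 6 libraries came from GMPs sorted from bone marrow of C57BL/6 mice that carried the floxed Bap1 allele (Bap1 f/f) and had received polyI:polyC. The 3 control libraries came from Bap1 f/f mice without Cre. The 3 libraries labelled knockout came from Bap1 f/f mice with Mx1-Cre, in which polyI:polyC switches on Cre through the interferon-responsive Mx1 promoter, so Cre itself and the loss of Bap1 cannot be told apart. Per the labels, mice were 65 days old and were injected at 42 days, whereas the design text of the series gives an earlier age. Mx1-Cre acts in many interferon-responsive cells and not in GMPs alone.

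Control libraries held 24125905 to 25901725 reads in genes and knockout-labelled libraries 19464353 to 24085250. Bap1, which encodes the targeted deubiquitinase, stood at 1343, 998.5 and 1076 normalised counts in control and at 2671, 3309 and 2968 in the libraries labelled knockout, which goes against the label; exons outside the deleted part are counted too, so the total does not check the deletion. Of 9 GMP and neutrophil markers, 5 were called higher (Elane, Ctsg, Ms4a3, Cebpe and Gfi1) and 0 lower, and the 9 summed to 864772 to 937595 normalised counts in control and 1092581 to 1586983 in knockout-labelled libraries. All 9 monocyte and dendritic markers were called lower (summed 31761 to 43371 against 3650 to 9642), as were all 6 tested B lymphoid markers (2139 to 2526 against 1087 to 1416, with Vpreb3 and Pax5 at 0 in every knockout-labelled library). Of 8 basophil, mast cell and eosinophil markers, 6 were lower and 1 higher (91832 to 97232 against 41782 to 55113), and of 5 tested T and NK cell markers Ncr1, Il2rb, Klrd1 and Gzmb were lower and Nkg7 higher. The T and NK sum (28334 to 30442 against 36419 to 56013) was nearly all Nkg7, at 27919 to 29764 and 36323 to 55955. Gzmb was 5.37-fold lower. Ncr1 had 160, 39 and 114 reads in control and 0, 1 and 0 in knockout-labelled libraries. Its ratio of means, 270-fold, thus rests on 1 read. Of 6 erythroid markers, Rhag and Epor were called higher (5.12-fold and 4.29-fold) and Car2 lower (2.57-fold), with a sum of 13490 to 21107 against 7394 to 18721. Of 5 megakaryocyte markers, only Pf4 was called (8.13-fold lower, 1093 to 2152 against 190.9 to 217). The 4 that did not pass were Itga2b, Gp9 and Gp1bb, higher in mean (2.07-fold, 1.6-fold and 3.18-fold), and Vwf, lower (2.29-fold). This list had a median log2 difference of 0.64, and a sum of 1789 to 3162 against 1110 to 2994. Of 3 tested stromal and endothelial markers, Cxcl12 and Emcn were lower (sum 1079 to 1398 against 859.8 to 1406), Emcn being at 0 in every knockout-labelled library, and Cdh5, which was below the filter, was at 0 in all 6. The part of such cells in the chaperone results was not tested, and in bulk RNA fewer cells of a type and less RNA per cell cannot be told apart.

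HSP70 proteins hold unfolded stretches of other proteins in a cycle driven by ATP. J proteins bring clients and trigger the hydrolysis, while HSP110 and BAG proteins release the nucleotide. HSP90 takes clients from HSP70 with the help of co-chaperones, and the CCT ring encloses new actin and tubulin. On heat or other protein damage the transcription factor HSF1 forms trimers, binds heat-shock elements and induces many of these genes, among them Hspa1a, Hspa1b, Hsph1, Dnajb1 and Bag3.

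Among the 40 tested members, the largest falls in the libraries labelled knockout were those of Hspa1a, Dnajc12, Hsph1 and Bag3, and the CCT ring showed no called member. Hspa1a was read in every control library and in no knockout-labelled one, Dnajc12 was 20.1-fold, Hsph1 6.11-fold and Bag3 4.60-fold lower, while the 8 CCT genes stayed between 81.1 and 105% of their control means in each knockout-labelled library. Of 40 tested members, 12 were called lower and 1 higher (limma, Benjamini-Hochberg adjusted p under 0.05 over 14391 genes), and 27 did not pass. Over all genes tested, 15.0% were called lower and 11.8% higher. The 2 groups did not overlap for 16 members that were lower and 4 that were higher in the knockout-labelled libraries, against 22.5% and 20.4% of all genes tested. The median log2 difference was -0.15 over the members and 0.01 over all genes. Adjusting each library for GC content and exon length moved the median of all genes by 0.10 and brought that of the members to 0.01. After it, 11 members were called lower: Stip1 and Hsf2 were lost, and Stub1 was gained. Called higher were 8, among them Bag2, which was already called higher before.

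**Figure D1:**
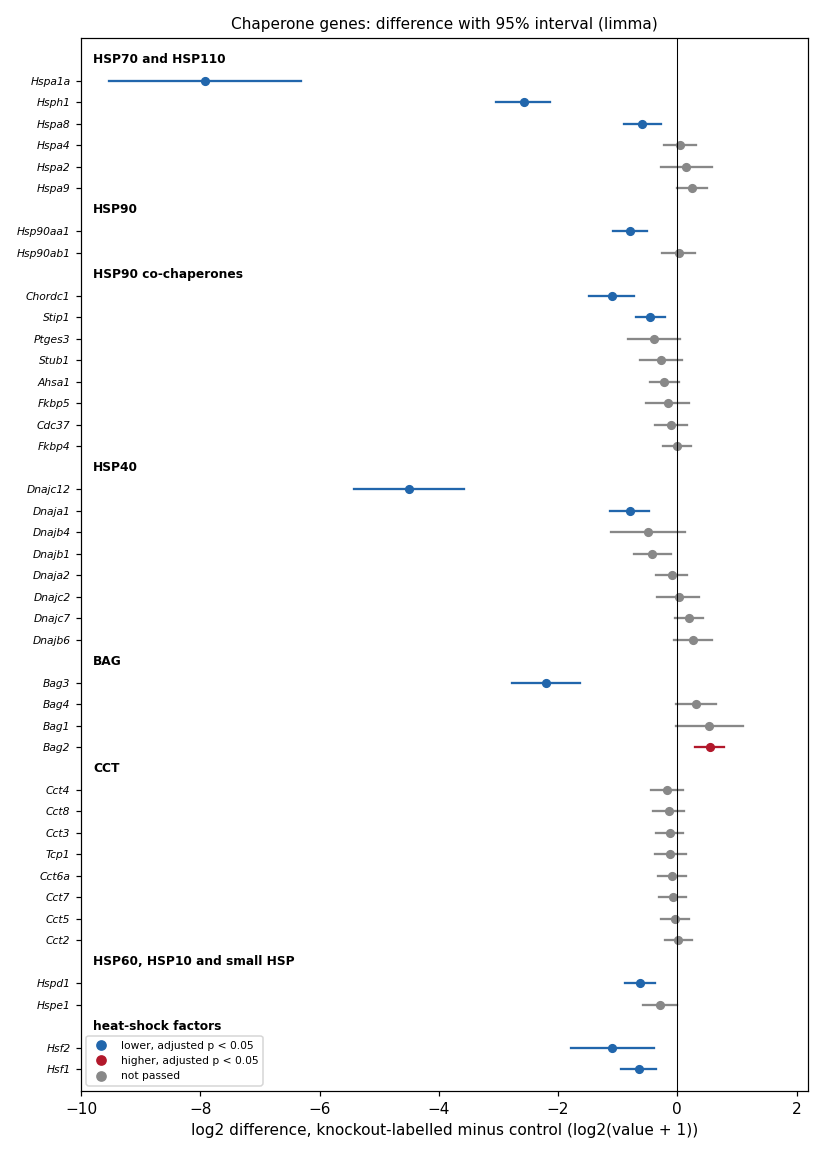
Log2 difference (knockout-labelled minus control, on log2(value + 1)) of the 40 tested members by class, as points with 95% intervals from limma. Blue marks lower, red higher and grey not past the threshold; Hspa1a, Dnajc12, Hsph1 and Bag3 lie farthest to the left, and all 8 CCT intervals lie between -0.44 and 0.24.

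The promoter of Hspa1a is shown because Hspa1a had reads in every control library and none in the others, and because HSF1 is known to act through the motif it holds. Heat-shock elements were searched as GAANNTTC and TTCNNGAA, 2 inverted units that each equal their own reverse complement, and runs of 3 or more units, in which these motifs overlap. Sequences are from RefSeq (GRCm38.p6), whose windows reach from 250 bases before to 50 after a gene's start. The 250 bases before the start of Hspa1a (chr17:34972157-34972406, minus strand) read 5′ to 3′ with GAA and TTC units of a match in capitals.
Hspa1a: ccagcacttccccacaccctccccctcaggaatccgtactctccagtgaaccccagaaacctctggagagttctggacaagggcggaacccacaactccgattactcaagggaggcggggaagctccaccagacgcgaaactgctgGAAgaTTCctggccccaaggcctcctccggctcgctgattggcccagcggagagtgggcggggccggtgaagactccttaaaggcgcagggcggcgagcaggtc

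Hspa1b, its neighbour on the same chromosome, matched it at 247 of these 250 bases and held the same element. The table counts non-unique alignments apart from genes, so the counts of this near-identical pair are uncertain.

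Shorter stretches of 30 bases show the matches in other members that were called lower, and in Dnajb6, which was not. They lie at chr1:55088053-55088082 (minus strand, Hspd1), chr9:18292259-18292288 (plus strand, Chordc1), chr5:149636280-149636309 (minus strand, Hsph1), chr4:40722333-40722362 (plus strand, Dnaja1), chr7:128523603-128523632 (plus strand, Bag3) and chr5:29735843-29735872 (plus strand, Dnajb6).
Hspd1: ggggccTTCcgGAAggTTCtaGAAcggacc
Chordc1: accgGAAcgTTCggGAAaaTTCctGAAgca
Hsph1: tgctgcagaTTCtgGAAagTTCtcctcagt
Dnaja1: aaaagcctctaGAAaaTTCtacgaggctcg
Bag3: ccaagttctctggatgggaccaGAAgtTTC
Dnajb6: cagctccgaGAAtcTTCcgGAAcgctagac

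Chordc1 held the longest run, with 5 units, followed by Hspd1 with 4, and Hsph1 and Dnajb6 with 3. The Hspd1 run lies between Hspd1 and Hspe1, which are transcribed away from each other, and was therefore in both windows. Of 34 members with a window, 17 held at least 2 units and 5 held at least 3. Among all 27025 genes of the promoter table, these shares were 17.0% and 0.662%. Of the 8 members called lower that had a window, 6 held 2 or more units and 3 held 3 or more (Hsph1, Chordc1 and Hspd1), and Stip1 and Hsf2 held none. Of the 22 members that did not pass, 9 held 2 or more units and 2 held 3 or more (Dnajb6 and Hspe1). Dnajb1, a textbook HSF1 target, held none. These are matches of letters and not measured binding sites. Not all lie upstream: the Bag3 match lies 42 to 49 bases and the Hsph1 run shown 15 to 27 bases after a start. The Chordc1 run of 5 units crosses its start, from base -4 to base 18. Hspa8, Hspa9, Hsp90aa1, Hsp90ab1, Dnajc2, Dnajc12, Bag4, Cct4 and Hsf1 were not searched.

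Both heat-shock factors were lower in the libraries labelled knockout. Hsf1 (ENSMUSG00000022556), the factor that drives the heat-shock response, stood at 1072, 1278 and 1180 normalised counts in control and at 695.5, 789.2 and 768.5 in knockout-labelled libraries. Every knockout-labelled library lay below every control, a 1.57-fold difference (log2 difference -0.65, SE 0.14, limma adjusted p = 0.00515). Hsf2, a related factor that can join HSF1 in mixed trimers, stood at 164.4, 135.7 and 127.5 against 84.27, 78.09 and 43.39, also without overlap. Its log2 difference was -1.09 (SE 0.32, limma adjusted p = 0.026), but the call was lost without control replicate 1 (0.0959), 2 (0.0713) or 3 (0.0593), without knockout replicate 3 (0.0615), and after GC and length correction (0.0874). Of the partners on a list of other HSF genes, 2 were tested and 0 called, and Hsbp1, which binds HSF1 trimers, had a log2 difference of -0.10 (limma adjusted p = 0.549).

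In the HSP70 and HSP110 class, the stress-inducible genes and the abundant Hspa8 were lower, and Hspa2, Hspa4 and Hspa9 did not pass. Hspa1a (ENSMUSG00000091971), the inducible HSP70, had 109, 776 and 221 reads in the control libraries, or 96.85, 741.5 and 197 normalised counts, and 0 reads in all 3 knockout-labelled libraries. The control libraries thus differed 7.66-fold among themselves, with control 2 far above the others, and the groups did not overlap. Set against 3 reads per knockout-labelled library, the usual 95% upper limit on a count of 0, the gene was at least 106-fold lower, and at least 45.2-fold lower without control replicate 2. Its limma adjusted p was 2.98e-05, and 7.42e-05 to 0.000628 without any 1 library.

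Hspa1b (ENSMUSG00000090877), which encodes almost the same protein, was below the filter with normalised counts of 7.996, 30.58 and 11.59 in control and 0 reads in the knockout-labelled libraries. It was at least 5.14-fold lower, and without the filter on low values its limma adjusted p was 0.00278. Its control values had the same order as those of Hspa1a. Because the counts of this near-identical pair are uncertain, that order may not be independent of Hspa1a.

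Hsph1 (ENSMUSG00000029657), the HSP110 that resets HSP70 and is itself heat-inducible, stood at 1539, 2670 and 2348 normalised counts in control. In the knockout-labelled libraries it stood at 431, 326.9 and 315.2, so that the highest of these was far under the lowest control. The log2 difference was -2.58 (SE 0.21, limma adjusted p = 1.08e-05), and -2.82 to -2.42 without any 1 library.

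Hspa8 (ENSMUSG00000015656), the constitutive HSC70 and the class member with the highest level per kilobase of exon, stood at 46272, 58997 and 51927 in control against 33840, 31017 and 39862. The groups did not overlap, and the log2 difference was -0.59 (SE 0.14, limma adjusted p = 0.00917). That call was lost without control replicate 2, the library in which Hspa8 was highest (0.0644).

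Hspa9, the mitochondrial HSP70 mortalin, went the other way without passing: 12912, 13358 and 13267 in control and 16687, 13787 and 16665 in knockout-labelled libraries (log2 difference 0.25, limma adjusted p = 0.13). It passed without knockout replicate 2 (0.0361) and after GC and length correction (0.000685). Hspa4, a constitutive HSP110, had a log2 difference of 0.05 (95% interval -0.22 to 0.32), and was called higher after GC and length correction (0.33, limma adjusted p = 0.0227). Hspa2, a gene best known from male germ cells, had one of 0.15 (-0.27 to 0.58). Per kilobase of exon, Hspa8 stood at 12200 normalised counts in control, Hspa9 at 3060, Hspa4 at 749, Hsph1 at 301, Hspa2 at 184 and Hspa1a at 116. The members with the largest falls were thus low in level already in control cells.

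The 2 cytosolic HSP90 genes differed from each other. Hsp90aa1 (ENSMUSG00000021270), the form more strongly induced by heat, stood at 9051, 10994 and 9402 normalised counts in control and at 6421, 5627 and 4948 in knockout-labelled libraries, without overlap. The log2 difference was -0.80 (SE 0.13, limma adjusted p = 0.00105). Hsp90ab1 (ENSMUSG00000023944), the constitutive form, stood at 72911, 78028 and 73650 in control and at 68734, 76227 and 84224 in knockout-labelled libraries. These overlapped, with a log2 difference of 0.02 and a 95% interval of -0.25 to 0.30.

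Within each library, where depth and scaling cancel, the ratio of Hsp90aa1 to Hsp90ab1 was 0.124, 0.141 and 0.128 in control and 0.0934, 0.0738 and 0.0587 in knockout-labelled libraries. The inducible form was thus the smaller share of the pair in every knockout-labelled library; the ratio was not tested. Per kilobase of exon, Hsp90ab1 was at 25000 and Hsp90aa1 at 2500 normalised counts in control, which made Hsp90ab1 the most abundant member.

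Of the 8 co-chaperones of HSP90, 2 were called lower and 0 higher, and all 8 log2 differences were below 0 (median -0.25). Chordc1 (ENSMUSG00000001774), which encodes the HSP90 partner CHP1 and carries the run of 5 heat-shock units shown above, stood at 4299, 3963 and 4643 normalised counts in control. It stood at 2648, 1902 and 1582 in knockout-labelled libraries, all below control. The log2 difference was -1.10 (SE 0.17, limma adjusted p = 0.000798).

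Stip1 (HOP), which links HSP70 to HSP90, stood at 7923, 9942 and 8835 against 6542, 6437 and 6526. The knockout-labelled libraries lay close together and below every control, with a log2 difference of -0.45 (SE 0.11, limma adjusted p = 0.0139). Leaving out control replicate 2 (0.0912) or 3 (0.0607) ended the call, as did adjusting for GC and length (0.0581).

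Fkbp4, an immunophilin of steroid receptor complexes and the co-chaperone with the highest mean, was level: 11870, 12228 and 11968 against 11114, 12823 and 12063, with a log2 difference of -0.01 (95% interval -0.24 to 0.23). Ahsa1, which speeds the HSP90 ATPase, was below control in all 3 knockout-labelled libraries without passing (log2 difference -0.22, limma adjusted p = 0.158). Ptges3 (p23), which stabilises closed HSP90, was spread widely in the knockout-labelled libraries, at 10588, 8027 and 5346 against 10101, 9685 and 10454 in control, and passed only without knockout replicate 1 (0.0168). Stub1, the ubiquitin ligase CHIP, stood at 3840, 3614 and 3765 against 2764, 4076 and 2582. It passed without knockout replicate 2 (0.0138) and after GC and length correction (0.0128). Cdc37, which brings kinases to HSP90, and Fkbp5 had log2 differences of -0.11 (limma adjusted p = 0.545) and -0.16 (0.487).

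**Figure D2:**
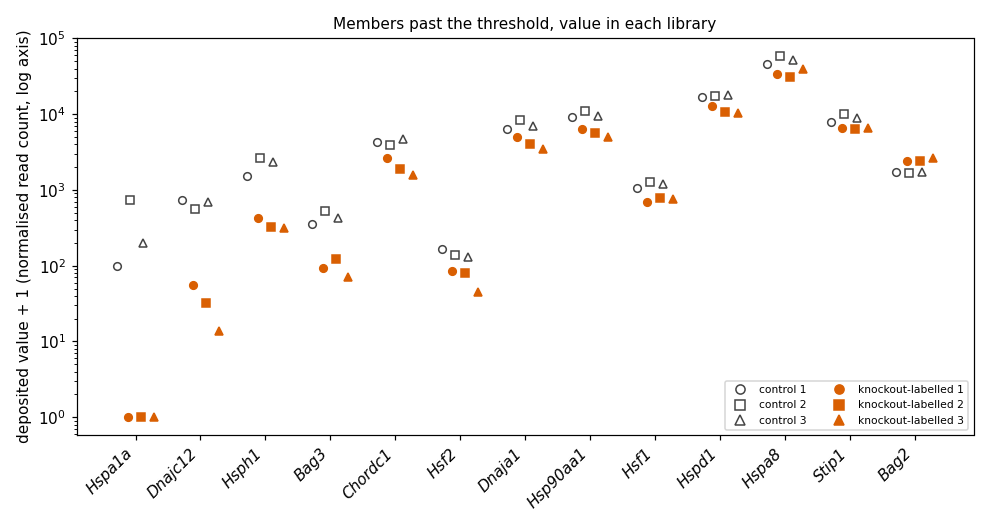
Deposited value + 1 (normalised read count, log axis) of the 13 called members in each library, with open grey symbols for control and filled orange symbols for knockout-labelled libraries. Hspa1a is at 0 reads in all 3 knockout-labelled libraries, Bag2 is the 1 member above control, and the groups do not overlap for any of the 13.

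Among 8 J proteins, 2 were called lower and 0 higher. Dnajc12 (ENSMUSG00000036764), a J protein that assists the folding of aromatic amino acid hydroxylases, showed the largest difference of any member with reads in both groups. It stood at 729.5, 558 and 682.8 normalised counts in control and at 54.4, 31.23 and 12.56 in knockout-labelled libraries, 20.1-fold lower without overlap (log2 difference -4.50, SE 0.42, limma adjusted p = 3.28e-05). Unlike Hspa1a, its 3 control values lay within 1.31-fold of each other, and control 2 was the lowest of them.

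Dnaja1 (ENSMUSG00000028410), a heat-inducible partner of HSC70, stood at 6353, 8300 and 7084 in control and 5032, 4087 and 3444 in knockout-labelled libraries. The log2 difference was -0.80 (SE 0.15, limma adjusted p = 0.0028). Its close relative Dnaja2, the J protein with the highest mean, stood at 7958, 7706 and 8027 against 8398, 6357 and 7603, with overlap and a log2 difference of -0.09 (95% interval -0.36 to 0.17). The within-library ratio of Dnaja1 to Dnaja2 was 0.798, 1.08 and 0.883 in control and 0.599, 0.643 and 0.453 in knockout-labelled libraries, the same pattern as for the HSP90 pair.

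Dnajb1 (HSP40), a textbook HSF1 target that also restrains HSF1, stood at 3027, 4491 and 3838 in control and at 2700, 2980 and 2729 in knockout-labelled libraries. All knockout-labelled values were below all control values, but the log2 difference of -0.42 (SE 0.14) did not pass in limma (adjusted p = 0.0529). It passed in edgeR and DESeq2 on recovered reads (adjusted p = 0.049 and 0.0263) and in limma without control replicate 1 (0.0192). It did not pass after GC and length correction (-0.32, limma adjusted p = 0.0913), and the adjusted p reached 0.237 without another library. Dnajb4 had a log2 difference of -0.49 (95% interval -1.11 to 0.13). Dnajb6, which suppresses aggregation and carries 3 heat-shock units, had one of 0.26 (-0.06 to 0.58). Dnajc7 was above control in every knockout-labelled library without passing (0.19, limma adjusted p = 0.203), and Dnajc2, which acts at the ribosome, had a difference of 0.02 (0.955). Dnajb6 and Dnajc7 passed after GC and length correction (0.0108 and 0.0037).

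The BAG genes went in both directions. Bag3 (ENSMUSG00000030847), a heat-inducible exchange factor that routes HSP70 clients to autophagy, stood at 350.1, 522.7 and 431.4 normalised counts in control and at 92.8, 120.8 and 69.66 in knockout-labelled libraries. That was a 4.60-fold difference without overlap (log2 difference -2.21, SE 0.26, limma adjusted p = 0.000138). Bag2 (ENSMUSG00000042215), which inhibits the ligase CHIP, was the 1 member called higher, at 1717, 1690 and 1733 against 2446, 2399 and 2648. Its log2 difference was 0.54 (SE 0.11, limma adjusted p = 0.00458), and each library's value lay outside the range of the other group.

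Bag1, the founding BAG protein, and Bag4 were also higher in mean without passing. Bag1 varied most among controls, at 537.5, 778.7 and 1321 against 1349, 1152 and 1081 in knockout-labelled libraries, and passed only without control replicate 3 (0.0133). Bag4 was nearly constant in control (563.3, 563.7 and 558.9) and higher in each knockout-labelled library (817.1, 674.7 and 616.6; limma adjusted p = 0.161), and passed after GC and length correction (0.00541). Bag3 was therefore the BAG gene with the lowest level per kilobase of exon in the knockout-labelled libraries, at 36.9 against 99.9 for Bag4, 816 for Bag2 and 885 for Bag1, whereas in control Bag4 was lowest (79.9) and Bag3 was at 170.

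In the chaperonins, mitochondrial HSP60 was lower and the cytosolic ring was not called. Hspd1 (ENSMUSG00000025980), which encodes HSP60, stood at 16728, 17396 and 17810 normalised counts in control and at 12840, 10618 and 10470 in knockout-labelled libraries, without overlap (log2 difference -0.62, SE 0.12, limma adjusted p = 0.00251). Hspe1, its HSP10 lid and its neighbour across the shared promoter, stood at 2189, 2255 and 2416 against 2044, 1997 and 1587. It too was below control in each library, with a smaller log2 difference of -0.29 that did not pass (limma adjusted p = 0.121). The within-library ratio of Hspd1 to Hspe1 was 7.64, 7.71 and 7.37 in control and 6.28, 5.32 and 6.60 in knockout-labelled libraries. Hspb1 (HSP27), the small heat-shock protein of the list, was listed at 0 reads in all 6 libraries.

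All 8 CCT genes were tested and 0 were called, in limma, edgeR or DESeq2 alike. Cct5, the subunit with the highest level per kilobase of exon, stood at 34038, 35574 and 34610 normalised counts in control and at 35063, 33210 and 33113 in knockout-labelled libraries. Its log2 difference was -0.04, with a 95% interval of -0.28 to 0.20. The differences of the others were -0.12 for Tcp1, 0.01 for Cct2, -0.13 for Cct3, -0.17 for Cct4, -0.09 for Cct6a, -0.07 for Cct7 and -0.14 for Cct8, with limma adjusted p from 0.34 to 0.941. The groups did not overlap for Cct3 alone, whose 3 knockout-labelled libraries lay below control. All 8 intervals together ran from -0.44 to 0.24. After GC and length correction, which raised the median of all genes, Cct2 (0.25, limma adjusted p = 0.0322) and Cct6a (0.24, 0.0477) were called higher, and the class median went from -0.10 to 0.17.

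**Figure D3:**
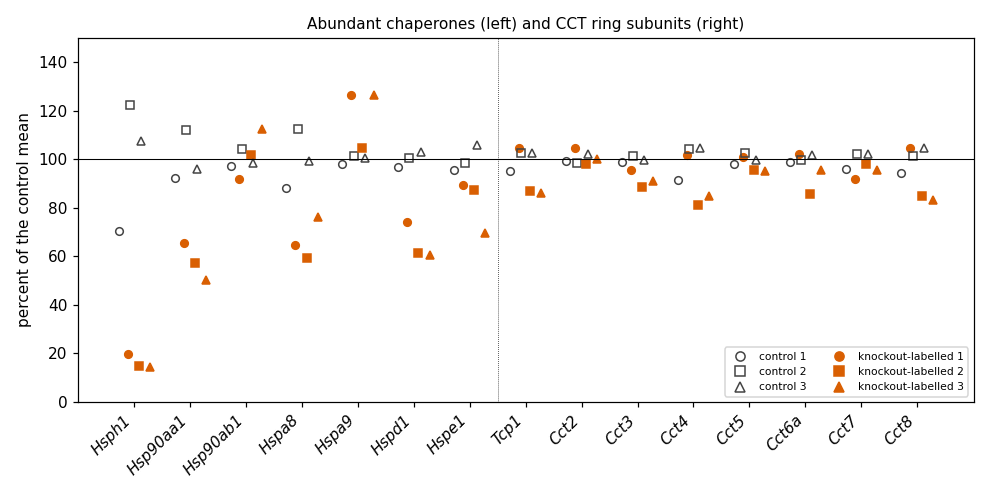
Value in each library as a percentage of the gene's control mean, for Hsph1 and 6 abundant chaperones (left of the dotted line) and the 8 CCT subunits (right), with open grey symbols for control and filled orange symbols for knockout-labelled libraries. Hsph1, Hsp90aa1, Hspa8 and Hspd1 lie below control, Hsp90ab1 overlaps control, and the CCT subunits lie between 81.1 and 105% in knockout-labelled libraries.

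The members called lower also varied together among the control libraries. For 8 of the 12 (Hspa1a, Hspa8, Hsph1, Hsp90aa1, Stip1, Dnaja1, Bag3 and Hsf1) control 2 was the highest, control 3 next and control 1 the lowest. Of all genes tested, 16.9% had that order. It was also seen in 11 of the 27 members that did not pass, among them Dnajb1, Dnajb4 and Hsp90ab1. The highest and lowest controls differed 1.97-fold for Dnajb4, 1.73-fold for Hsph1, 1.49-fold for Bag3, 1.48-fold for Dnajb1 and 1.07-fold for Hsp90ab1. Chordc1, Hspd1, Hsf2 and Dnajc12 did not follow it. The calls of Hspa8 and Stip1 depended on control 2, as given above.

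Genes of the same pathway outside the members were read from lists of 95 genes, of which 80 were tested; 7 were called higher and 12 lower. Over all genes tested, 11.8% were called higher and 15.0% lower. Of 18 other HSP90 co-chaperones, 3 were called lower and 0 higher (median log2 difference -0.12). Ppid, cyclophilin 40, stood at 6354, 5885 and 6616 normalised counts in control and at 4036, 2854 and 2250 in knockout-labelled libraries (log2 difference -1.08, limma adjusted p = 0.00118). Cacybp, a SIAH-binding co-chaperone, and Sugt1, which serves kinetochores and immune receptors, were lower by 0.60 and 0.52 on the log2 scale. Both calls were lost without control replicate 2 or 3 or knockout replicate 2, and that of Sugt1 also without control replicate 1 or knockout replicate 3, with adjusted p up to 0.074 and 0.118. GC and length correction ended both (Cacybp -0.26, limma adjusted p = 0.0745; Sugt1 -0.17, 0.327), and Sugt1 did not pass in edgeR (adjusted p = 0.0508). Of 7 other HSP70 family and exchange factor genes tested, 2 were lower: Hspa13, an HSP70 of the endoplasmic reticulum (log2 difference -1.17, limma adjusted p = 0.000179), and Hspbp1, an inhibitor of HSP70 (-0.63, 0.0214; lost without any 1 control replicate, with adjusted p up to 0.0693).

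Of 19 other J protein genes tested, from a list without those of mitochondria, 3 were called higher and 2 lower. The lower genes were Dnajc18 and Dnajb14. Dnajc18 stood at 498.4, 582.8 and 458.2 against 147.2, 126 and 78.79 (log2 difference -2.16, limma adjusted p = 0.000132). Dnajb14 was at -0.71 (limma adjusted p = 0.0243). That call was lost without control replicate 2 or 3 or knockout replicate 3 (adjusted p up to 0.123), and after GC and length correction (0.122). Dnajc6 (auxilin) and Dnajc5 (cysteine string protein), which serve clathrin uncoating and vesicle release, were higher by 1.5 and 0.61 (0.00172 and 0.00383). The third higher gene, Dnajb3, was low in every library, at 3.554, 7.644 and 3.565 against 30.93, 21.86 and 30.83. Its log2 difference was 2.34 (limma adjusted p = 0.0159), and the call was lost without knockout replicate 3 (0.0511). Of 16 mitochondrial chaperones and proteases, 2 were higher and 2 lower, with Dnajc15, a J protein of the import motor, at -0.93 (limma adjusted p = 0.000592). Afg3l2, a protease subunit, was at 0.74 (0.0241) and Dnajc28 at -0.81 (0.0297), and both calls were lost without several single libraries (adjusted p up to 0.0704 and 0.105), that of Dnajc28 also after GC and length correction (0.136). Among 16 cofactors of CCT, prefoldin and tubulin folding, 1 was higher and 2 lower. Pdrg1, a prefoldin-like protein, stood at 2790, 3193 and 3141 against 1813, 1913 and 1724 (log2 difference -0.74, limma adjusted p = 0.000892). Pdcl (0.44, 0.0288) and the prefoldin subunit Pfdn4 (-0.62, 0.0338) lost their calls without several single libraries (up to 0.124 and 0.12), and Pfdn4 also after GC and length correction (-0.27, 0.165).

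Of 9 other small heat-shock protein genes, 7 were below the filter. Hspb6 was called higher, at 189.3, 160.5 and 209.5 against 436.3, 466.4 and 465.9 (log2 difference 1.29, limma adjusted p = 0.000555), and Hspb11, now known as a subunit of intraflagellar transport, was lower (-1.45, 0.00841). Cryab (alpha B crystallin), below the filter and named after its values were seen, had 29, 7 and 23 reads in control libraries and 0, 0 and 1 in knockout-labelled libraries.

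**Figure D4:**
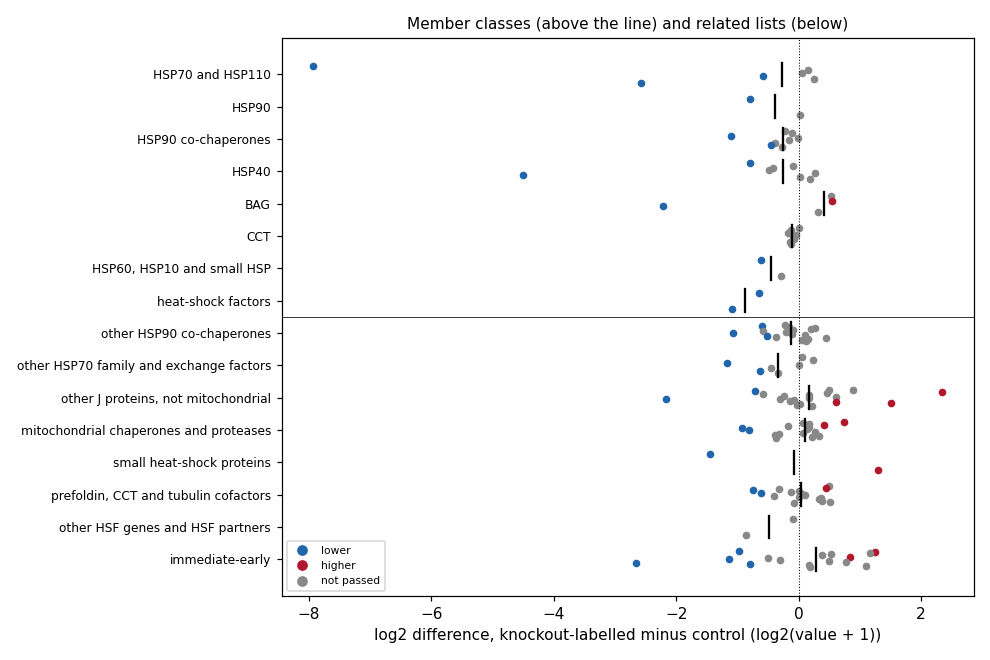
Log2 difference (knockout-labelled minus control) of each tested gene, with member classes above the horizontal line and related lists below it; black ticks are medians and the dotted line is the median of all genes tested. CCT genes form the narrowest class, while HSP70 and HSP40 classes hold both genes far to the left and genes near 0. In the BAG class, Bag3 lies to the left and the other genes lie to the right of 0.

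Immediate-early genes, which rise within minutes of many kinds of stress, did not move one way. Of 16 tested, 2 were called higher and 4 lower. Dusp1, a phosphatase of MAP kinases, was higher by 1.24 (limma adjusted p = 0.0048), while Btg2, an antiproliferative gene, and the transcription factor gene Klf4 were lower by 0.97 and 2.65 on the log2 scale (0.000892 and 0.00578). The cold-inducible RNA-binding protein genes Cirbp and Rbm3, named after their values were seen, stood opposite to the heat-inducible members in the same libraries. Rbm3 was at 1583, 1470 and 1662 normalised counts in control and at 3687, 3676 and 3542 in knockout-labelled libraries (log2 difference 1.21, limma adjusted p = 2.98e-05). Cirbp had a log2 difference of 3.20 (limma adjusted p = 1.46e-07). Control 2 was the lowest control for both Cirbp and Rbm3, whose highest and lowest controls differed 1.35-fold and 1.13-fold. The share of all genes with control 2 lowest was not computed. Control 2 was the highest control for 8 of the 12 lower members, for 14 of the 27 members that did not pass and for 32.3% of all genes tested. Whether these differences share a source was not tested.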

How the data were processed

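RNA of 6 GMP libraries was converted to amplified cDNA with SMARTer chemistry and sequenced as Ion Torrent whole-transcriptome libraries, per the labels' protocols. Tools listed without a role in the submitters' processing notes are STAR, HTSeq, BWA 0.7.5a, DESeq2 and Picard, with builds NCBIM37 and mm9. The deposited values, a signal per gene, are gene counts that were divided by 1 size factor per library: 100% of values above 0 were whole multiples of the smallest value, within 0.01 of a read, and dividing by it recovered the reads. The 5 rows naming no gene were left out, which left 22.86 to 25.19% of all reads listed. No source used here says whether counting used strand, so overlapping and antisense genes cannot be told apart. Reads without molecular identifiers are not independent molecules, so limits drawn from 3 reads cover counting error only.

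Names came from GENCODE M21 (32897 of 37620 rows), as did union exon lengths and GC. The test was limma 3.58.1 under R 4.3.3, with its trend option, on log2(value + 1) of genes whose mean value reached 10, group as the sole term, 2-sided, Benjamini-Hochberg adjusted over all genes, threshold 0.05. Differences on this scale understate those of low genes. edgeR 4.0.16 (quasi-likelihood) and DESeq2 1.42.0 were run on recovered reads. The limma and edgeR steps were also run on simulated counts. These held no GC or length effect, so that run cannot show how such an effect is handled, and its outcome is not given here. Values in every library are given for called members, the highest member of each class and Hsf1, Hspa1a, Hspa1b, Hsph1, Dnajb1 and Bag3, and for others where they help. Of each related list, up to 3 called genes with the lowest adjusted p are named, and of the other J proteins all called genes. Members, lists and tests were chosen with earlier results of these data known. The labels do not say that libraries came from separate mice, so p-values measure the spread between these libraries.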

Additional observations from a re-analysis of the deposited data

How the results depend on the processing

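Of the 12 members called lower, 9 passed under every alternative: Hspa1a, Hsph1, Hsp90aa1, Chordc1, Dnaja1, Dnajc12, Bag3, Hspd1 and Hsf1. The counts over all genes, 1695 higher and 2163 lower, became 2756 higher after GC and length correction (1838 lower; lower calls made up 40.0% of calls, and 56.1% without it) and 2575 higher with that correction and the replicate block. Without any 1 library they ran from 1058 to 1796 higher and from 1413 to 2354 lower, the lowest without control replicates 2 and 3. Members called higher, 1 as reported, were 8 after the correction, 7 with the correction and block, and 1 to 2 without any 1 library. Called lower were 9 to 14.

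After the correction, with or without the block, class medians were 0.01 over all members (from -0.15), -0.08 for HSP70 and HSP110 (from -0.27), -0.14 for HSP90, -0.08 for the HSP90 co-chaperones, 0.05 for HSP40, 0.17 for CCT and -0.28 for HSP60 and HSP10, against 0.11 for all genes. Cct6a, at -0.09, became 0.24. The HSP70 median was -0.59 with no filter and in DESeq2, where Hspa1b enters, and -0.69 to -0.24 without any 1 library; that of HSP40 was -0.33 to -0.10. What moved the other medians was not tested.

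Same-numbered libraries did not deviate together (correlations of -0.10, 0.04 and -0.06). With the replicate block, 1550 genes were higher and 2014 lower, with 1 and 13 members; Dnajb1 was the member gained (0.0499).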
